A study of Mus musculus with 3 samples.

Results

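The presynaptic active zone scaffold is the protein network that holds synaptic vesicles beside the calcium channels of a nerve terminal. It is described here by 10 genes of the 32531 gene symbols in the count tables: the large scaffold genes Pclo and Bsn, the RIM genes Rims1 and Rims2, the ELKS genes Erc1 and Erc2, the Munc13 genes Unc13a, Unc13b and Unc13c, and the RIM-binding protein gene Rimbp2. They were chosen by symbol, and all 10 were found and counted in every library. The data are 3 libraries of 1 group. Adult transgenic mice of the line Htr6-TRAP NIDA113 on the C57BL/6J strain carry Rpl10a, a protein of the large ribosomal subunit, fused to EGFP in a transgene named for Htr6, which encodes a serotonin receptor. Tagged ribosomes were pulled down with an anti-EGFP antibody from the deep nuclei, through which the cerebellum sends its output, and their RNA was sequenced. There is no second group, so levels are compared between genes within a library, and the spread between the 3 libraries is the error. Levels describe how much of a transcript the pulldown held, not its enrichment over tissue, and in such bulk RNA fewer cells of a type and less RNA per cell cannot be told apart. Separate animals are not stated in the labels, so part of the spread may be technical.

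In the active zone, Piccolo and Bassoon are very large proteins that organise the site and tether vesicles. RIM proteins bind RAB3 on vesicles, calcium channels and Munc13. Munc13 proteins prime vesicles for fusion by acting on syntaxin, ELKS proteins bind RIM, and RIM-binding proteins link RIM to calcium channels. Neurons of the deep nuclei carry these proteins in their axon terminals, many of them far from the nuclei, while most of the mRNA is translated in the cell body.

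Gene counts totalled 7622010 to 8842058 per library, and 13095 to 13951 genes had at least 1 count. Pan-neuronal markers were abundant, with Snap25 at 14585 ± 2875 CPM (gene counts scaled to the library size; SD, n = 3) and 7 of 7 markers at 100 CPM or more. Of the 6 markers of glutamatergic deep nuclei neurons 4 reached 10 CPM, led by Slc17a6 (302 ± 80.2 CPM). Of the 6 genes listed for inhibitory ones 5 did, led by Gad2, which is not limited to neurons of the deep nuclei, while Sox14 had no count. Markers of the cerebellar cortex were also present, with 8 of 8 granule cell and 6 of 7 Purkinje cell markers at 10 CPM or more, as were 5 of 5 for oligodendrocytes and 5 of 6 for astrocytes and Bergmann glia. Of the 4 microglial markers 1 reached 10 CPM, Csf1r at 19.6 ± 9.8 CPM, and C1qa and Aif1 had no count. Of the 3 vascular markers 2 did, Flt1 at 32.1 ± 22.5 CPM and Rgs5 at 23.6 ± 21.9 CPM, and Cldn5 had no count. Over all 14036 genes with at least 10 counts across the libraries, 8173 reached a mean of 10 CPM and 2067 of 100 CPM. A share of markers near that background does not by itself show a cell type. Htr6 itself had 0, 7 and 0 counts in replicates 1, 2 and 3.

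Since the comparisons below set paralogs against each other, the sequences they share decide whether reads could be split between them. No run of 50 bases in the longest coding transcript of any of the 10 genes, or of the further RIM-binding protein gene Tspoap1, occurred in a transcript of another of these 11 genes (GENCODE M21, mm10). For some of the paralog pairs, 90-base windows of coding sequence are shown around the longest identical run, which is in capitals. Positions count from the start codon.
Pclo: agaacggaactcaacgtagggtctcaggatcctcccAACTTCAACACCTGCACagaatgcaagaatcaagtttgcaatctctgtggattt
Bsn: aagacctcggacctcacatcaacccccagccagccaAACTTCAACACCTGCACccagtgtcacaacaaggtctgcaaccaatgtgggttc
Rims1: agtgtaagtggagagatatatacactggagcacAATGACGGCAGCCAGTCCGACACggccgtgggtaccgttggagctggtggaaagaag
Rims2: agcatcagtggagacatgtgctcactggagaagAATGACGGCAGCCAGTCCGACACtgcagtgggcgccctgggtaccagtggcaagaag
Erc1: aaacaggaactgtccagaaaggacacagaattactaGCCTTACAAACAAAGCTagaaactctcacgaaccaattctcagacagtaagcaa
Erc2: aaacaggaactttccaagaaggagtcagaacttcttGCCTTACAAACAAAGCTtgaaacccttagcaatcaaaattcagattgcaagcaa
Unc13a: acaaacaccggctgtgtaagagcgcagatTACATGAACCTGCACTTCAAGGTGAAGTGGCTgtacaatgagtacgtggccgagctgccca
Unc13b: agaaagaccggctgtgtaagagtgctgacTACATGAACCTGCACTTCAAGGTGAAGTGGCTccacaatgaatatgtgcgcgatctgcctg

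The run of Pclo and Bsn was 17 bases long (Pclo positions 3037 to 3053, Bsn positions 547 to 563), and 50 of the 90 bases in the window were identical. Rims1 and Rims2 shared 23 bases (Rims1 positions 3427 to 3449, Rims2 positions 3862 to 3884) and 69 of 90, and Erc1 and Erc2 shared 17 bases and 70 of 90. The longest run in any pair was the 32 bases of Unc13a and Unc13b (Unc13a positions 3364 to 3395, Unc13b positions 11494 to 11525), with 76 of 90 bases identical. Unc13c shared up to 29 bases with Unc13a and 20 with Unc13b. Other sequence limits were small except for Erc1: 19.9% of its 50-base runs lie in Gm44317, an antisense gene over 11.8% of its exon bases that has no row in the files. For Unc13a, 4.37% of the runs lie in Colgalt1 on the opposite strand, a gene with 13, 4 and 56 counts. The strand setting of the counting is not given in the sources used here.

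All 10 genes together took 0.572%, 0.612% and 0.553% of gene counts in replicates 1, 2 and 3 (exact 95% Clopper-Pearson intervals 0.566 to 0.577%, 0.607 to 0.617% and 0.548 to 0.559%, counting error only). Pclo and Bsn, which have the longest coding transcripts of the members, held 71.2%, 71.0% and 69.6% of those counts. Of the 10 members 7 had a mean of at least 100 CPM, against 14.7% of the 14036 genes with at least 10 counts over the libraries. The median of the member means was 258 CPM, against 15.1 CPM for those genes. The count was 6 without replicate 1 and without replicate 3, where Unc13a averaged 93.0 and 96.4 CPM. CPM is not scaled for gene length, so these comparisons with all genes also hold differences in length. Genes are compared with each other below as RPKM, CPM divided by the kilobases in the union of annotated exons. In RPKM the medians were 21.5 for the members and 3.94 for expressed genes with an annotated length.

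Pclo was the most abundant member per length. Pclo (ENSMUSG00000061601.15, chr5:14514918-14863459 in mm10, plus strand) had 21063, 30222 and 22659 counts, or 124, 153 and 129 RPKM. The mean of 135 ± 15.2 RPKM (SD, n = 3) lay above 99.0% of the 12563 expressed genes with an annotated length. Bsn (ENSMUSG00000032589.14, chr9:108096022-108190384 in mm10, minus strand) had 10260, 8210 and 6684 counts, or 85.2, 58.5 and 53.8 RPKM. Pclo exceeded Bsn in 3 of 3 libraries, and the level of Bsn was highest in replicate 1, where that of Pclo was lowest. The log2 ratio per length of Pclo over Bsn was 0.54, 1.39 and 1.27, a mean of 1.06 ± 0.46 (SD, n = 3; 2.09-fold). This was larger than the SD, but an exact sign-flip permutation test (two-sided, 3 libraries) gave p = 0.25. That is the smallest p this design allows, and all 7 pairs compared had it, so sizes are read against the SD from here on. As a share of their summed RPKM, Pclo made up 67.4 ± 7.1% and Bsn the rest.

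**Figure D1:**
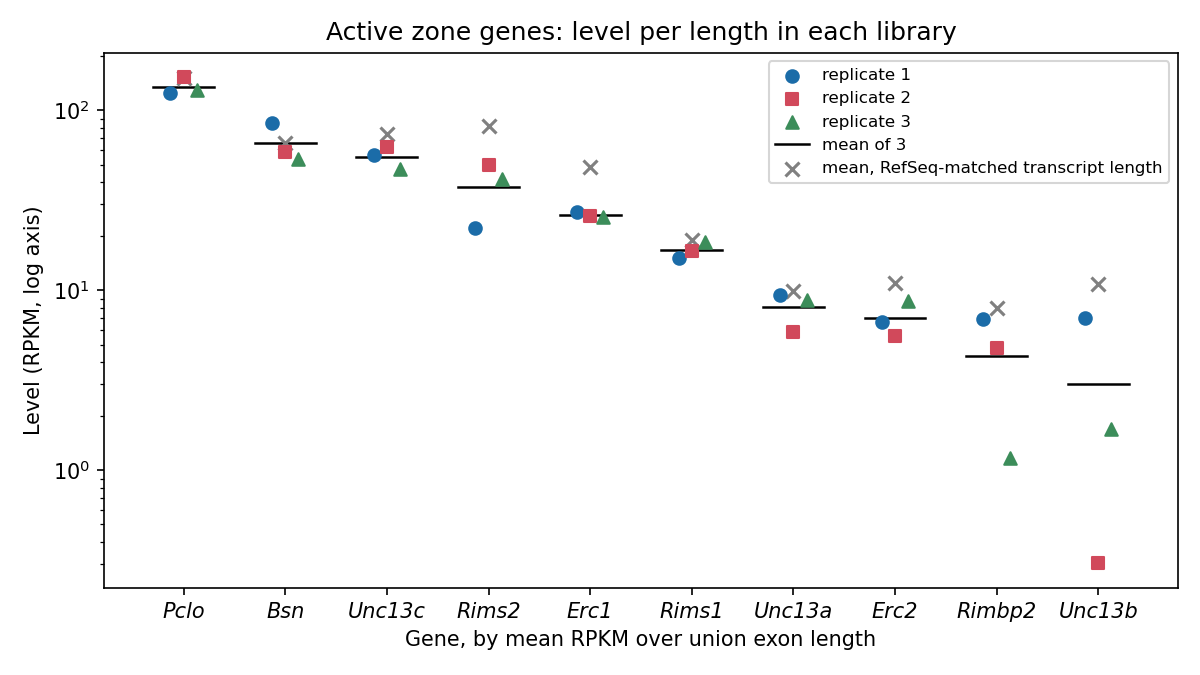
Level of each of the 10 active zone genes in RPKM (log axis) in replicates 1, 2 and 3, with the mean as a black line and the mean by the length of the longest RefSeq-matched transcript as a grey cross. Pclo lies between 124 and 153 RPKM, and the points of Unc13b and Rimbp2 spread the most.

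Of the RIM genes, Rims2 was the more abundant. Rims1 (ENSMUSG00000041670.16, chr1:22286251-22805994 in mm10, minus strand) had 837, 1069 and 1064 counts, or 15.1, 16.5 and 18.5 RPKM. Rims2 (ENSMUSG00000037386.16, chr15:39198261-39684372 in mm10, plus strand) had 1735, 4537 and 3368 counts, or 22.1, 49.6 and 41.6 RPKM. Rims1 differed little between libraries, while Rims2 was lowest in replicate 1, and their ranges did not overlap. The log2 ratio of Rims1 over Rims2 was -0.55, -1.59 and -1.17, with a mean of -1.10 ± 0.52 (lower in 3 of 3 libraries). Its size depends on the gene model, since the union of Rims2 exons (10389 bases) is longer than its longest coding transcript (4800 bases), and by the latter length the ratio was -2.02 ± 0.52. Rims2 and Pclo shared their order across libraries, highest in replicate 2 and lowest in replicate 1. The summed granule cell markers (3710, 4274 and 4132 CPM) and vascular markers (27.0, 89.8 and 50.4 CPM) had the same order. Most single granule cell markers did not have it, and neither did Flt1 or Rgs5 taken alone. The part of these cells in this spread was not tested.

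Of the ELKS genes, Erc1 was the more abundant and the steadiest of the 10 members. Erc1 (ENSMUSG00000030172.15, chr6:119570796-119848167 in mm10, minus strand) had 3345, 3694 and 3259 counts, or 27.2, 25.8 and 25.7 RPKM, a CV of 3.27% between libraries. Erc2 (ENSMUSG00000040640.11, chr14:27622428-28478537 in mm10, plus strand) had 488, 481 and 665 counts, or 6.64, 5.61 and 8.77 RPKM. Every library of Erc1 lay above every library of Erc2. The log2 ratio of Erc1 over Erc2 was 2.03, 2.20 and 1.55, with a mean of 1.93 ± 0.34 (3.80-fold, higher in 3 of 3 libraries). Erc1 held 79.0 ± 4.0% of the summed ELKS RPKM.

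Of the Munc13 genes, Unc13c far outweighed its paralogs. Unc13c, which encodes the isoform known in rodents from cerebellar granule cells (ENSMUSG00000062151.13, chr9:73479422-73968966 in mm10, minus strand), had 3749, 4858 and 3229 counts, or 56.4, 62.7 and 47.1 RPKM. Unc13a, the isoform used by most excitatory synapses of the forebrain (ENSMUSG00000034799.16, chr8:71624417-71671757 in mm10, minus strand), had 893, 657 and 869 counts, or 9.37, 5.91 and 8.83 RPKM. Unc13c was higher in 3 of 3 libraries, with a log2 ratio over Unc13a of 2.59, 3.41 and 2.41 and a mean of 2.80 ± 0.53 (6.98-fold). Its share of the summed Munc13 RPKM was 77.5%, 91.0% and 81.7% in replicates 1, 2 and 3. All 8 granule cell markers were counted in every library, among them the defining gene Gabra6 at 243 ± 36.5 CPM, and the part of granule cell RNA in the level of Unc13c was not tested.

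Unc13b was the member that differed most between libraries. Unc13b (ENSMUSG00000028456.18, chr4:43058953-43264871 in mm10, plus strand) had 1208, 61 and 301 counts, or 7.03, 0.304 and 1.70 RPKM, so that replicate 1 was 23.1 times replicate 2. Its mean of 68.5 ± 80.8 CPM dropped to 22.8 CPM without replicate 1. The log2 ratio of Unc13c over Unc13b was 3.004, 7.67 and 4.79 (mean 5.16 ± 2.36, higher in 3 of 3 libraries), and it was 3.90 without replicate 2 and 6.23 without replicate 1. The direction of Unc13a over Unc13b was less settled. Its log2 ratio was 0.41, 4.27 and 2.38 (mean 2.35 ± 1.93), 1.40 without replicate 2 and 3.32 without replicate 1. The annotated Unc13b exons (22746 bases) include a transcript of 14754 bases, whereas the longest one matched to a curated RefSeq mRNA has 6354 bases. By RefSeq-matched lengths, a choice made after seeing the data, the ratio of Unc13a over Unc13b was -1.13, 2.73 and 0.84, with no common sign, while that of Unc13c over Unc13b stayed above 0 in 3 of 3 libraries at 1.57, 6.24 and 3.36.

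**Figure D2:**
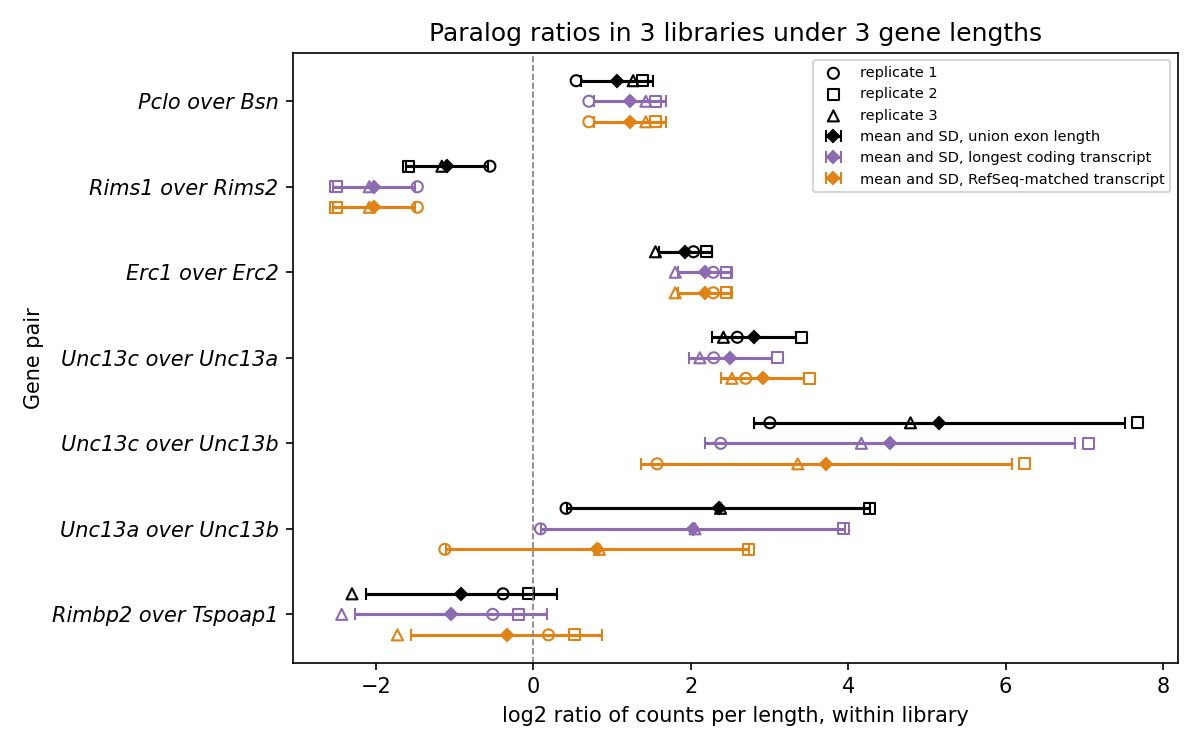
Log2 ratio of counts per length within each library (open symbols) with mean and SD (diamonds and bars) for 7 gene pairs under 3 definitions of gene length. Pclo over Bsn, Erc1 over Erc2 and Unc13c over both paralogs lie right of 0 and Rims1 over Rims2 left of 0 under each length. The libraries of Unc13a over Unc13b and of Rimbp2 over Tspoap1 fall on both sides of 0 under RefSeq-matched lengths. The SD bar of Rimbp2 over Tspoap1 crosses 0 under each length.

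Rimbp2 was low and uneven. Rimbp2 (ENSMUSG00000029420.12, chr5:128757791-128953486 in mm10, minus strand) had 417, 335 and 72 counts, or 6.96, 4.79 and 1.16 RPKM. Its paralog Tspoap1, named Bzrap1 in the files, which encodes another RIM-binding protein (ENSMUSG00000034156.16, chr11:87760541-87785928 in mm10, plus strand), had 653, 418 and 429 counts, or 9.10, 4.99 and 5.80 RPKM. The genes overlapped in range, and replicate 3 alone set Rimbp2 clearly below Tspoap1. The log2 ratio of Rimbp2 over Tspoap1 was -0.39, -0.06 and -2.31, and its mean of -0.92 ± 1.21 was within the SD. It was -0.22 without replicate 3 and -1.35 without replicate 2. By RefSeq-matched lengths it was 0.19, 0.52 and -1.73. The summed pan-neuronal markers (25012, 22756 and 16991 CPM) and glutamatergic deep nuclei markers (666, 476 and 423 CPM) had the same order as Rimbp2. The oligodendrocyte (3098, 3644 and 2883 CPM) and microglial sums (29.1, 31.6 and 15.3 CPM) were also lowest in replicate 3. The part of these cells in the level of Rimbp2 was not tested.

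**Figure D3:**
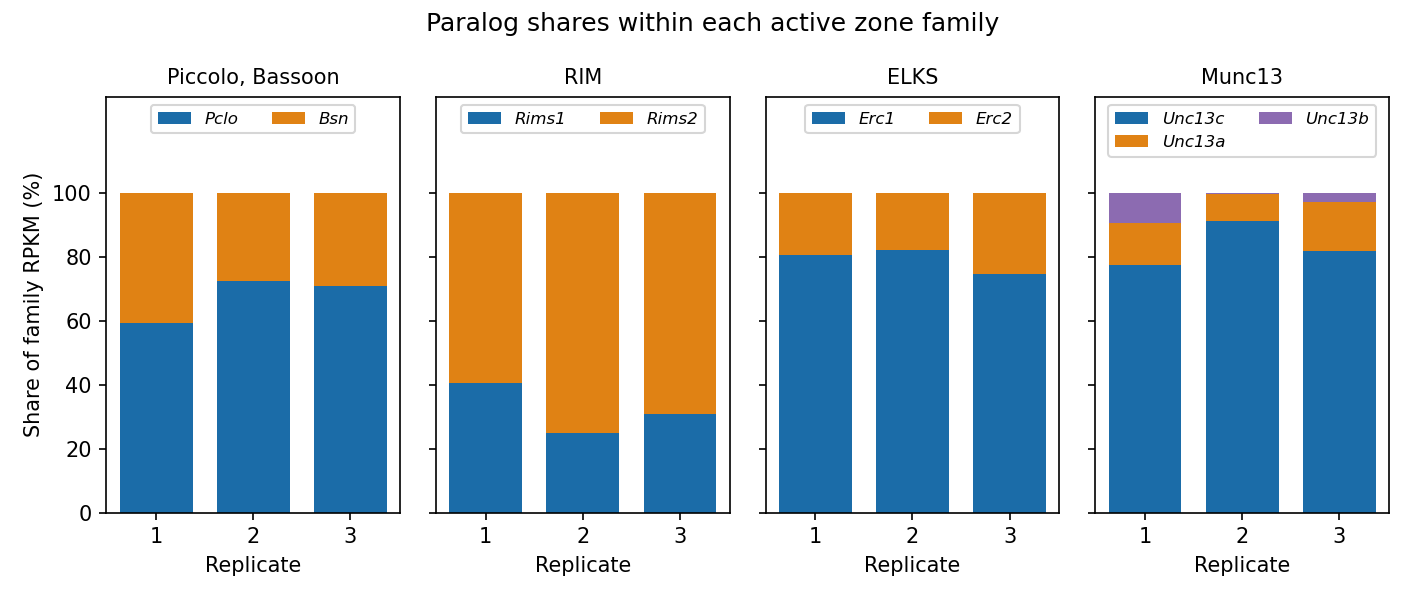
Share of each paralog in the summed RPKM of its family (stacked bars, percent) in replicates 1, 2 and 3. Pclo, Rims2, Erc1 and Unc13c hold the larger share in all 3 libraries, and Unc13c reaches 91.0% of the Munc13 sum in replicate 2.

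In order of mean RPKM the members ran Pclo, Bsn, Unc13c, Rims2, Erc1, Rims1, Unc13a, Erc2, Rimbp2 and Unc13b. Of the 9 neighbouring pairs, 3 were apart in the same direction in every library and by more than the SD. These were Pclo above Bsn, Erc1 above Rims1 (log2 ratio 0.66 ± 0.19) and Rims1 above Unc13a (1.08 ± 0.40). Bsn and Unc13c (0.23 ± 0.35), Unc13c and Rims2 (0.62 ± 0.64), Rims2 and Erc1 (0.45 ± 0.66) and the pairs from Unc13a down did not differ beyond their spread. With RefSeq-matched lengths Pclo stayed first, at 151 ± 17.0 RPKM. Rims2 then came second at 81.7 ± 30.6 RPKM and Rimbp2 last at 8.01 ± 5.45 RPKM. By family, the summed level was 201 ± 15.6 RPKM for Pclo and Bsn, 66.5 ± 7.9 RPKM for the 3 Munc13 genes, 54.5 ± 15.3 RPKM for the RIM genes and 33.2 ± 1.6 RPKM for the ELKS genes. By RefSeq-matched lengths the RIM sum was 101 ± 31.8 RPKM, the Munc13 sum 94.1 ± 16.2 RPKM and the ELKS sum 59.7 ± 2.6 RPKM, so the order of the RIM and Munc13 families depends on the gene length used. By union exon length the ELKS sum was the steadiest, at 33.9, 31.4 and 34.5 RPKM in replicates 1, 2 and 3.

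All 10 members varied between libraries beyond counting error by a Poisson chi-square test with Benjamini-Hochberg adjustment over 11168 genes (threshold 0.05), as did 96.5% of the genes tested, so their count is near the background. Erc1 came closest to counting error (adjusted p = 0.0303) and was not called without replicate 1, and Unc13a was not called without replicate 2. By edgeR's quasi-likelihood dispersion, no member was more variable than genes of its level at an adjusted p under 0.05, and 0% of all genes were. Without adjustment, Unc13b alone of the members was under 0.05, as were 4.27% of all genes, and its adjusted p in edgeR was 0.956. With 3 libraries this test can leave a wide spread uncalled, as it did for Unc13b, where replicate 1 was 23.1 times replicate 2. A member that was not called is thus not shown to be as even as other genes of its level. The 7 members with at least 100 CPM had a median CV of 14.1%, against 25.4% for the 2067 genes with at least 100 CPM. The sets were not matched for level above that threshold. The CVs of these members were 3.27% for Erc1, 10.5% for Rims1, 11.2% for Pclo and 14.1% for Unc13c. Those of Unc13a (23.2%), Bsn (25.8%) and Rims2 (37.4%) were higher. Below 100 CPM the CV was 23.0% for Erc2, 68.0% for Rimbp2 and 118% for Unc13b.

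The genes of proteins that work with the scaffold were taken from a list of 37, all found in the files. Of these, 31 had a mean of at least 10 CPM and 16 of at least 100 CPM. Among the 14036 genes with at least 10 counts over the libraries, 8173 and 2067 did. The median of the 37 was 9.22 RPKM, against a median of 3.94 RPKM over all expressed genes. The median of the 10 members was 21.5 RPKM. The highest were Rph3a, which encodes rabphilin, an effector of RAB3 (403, 317 and 416 RPKM), and Rab3a, the main vesicle RAB3 of brain (86.7, 125.2 and 91.4 RPKM). They were followed by the adaptor gene Lin7a (82.0, 88.5 and 85.1 RPKM), the P/Q-type calcium channel pore gene Cacna1a (74.4, 40.1 and 42.2 RPKM) and Rab3c (37.4 ± 10.6 RPKM). Rph3a was above Pclo in every library, and Lin7a was nearly as even between libraries as Erc1, with a CV of 3.84%.

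The highest genes of the other role groups are given next, by union exon length. Ppfia1 led the liprins-alpha, which bind RIM and ELKS, at 16.2 ± 4.7 RPKM, with Ppfia2 at 15.6 ± 5.2 RPKM. Ptprd led the receptor phosphatases at 20.6 ± 4.4 RPKM (98.0 RPKM by RefSeq-matched length, above Cacna1a at 75.3 RPKM), Pfn2 the proteins that bind Bassoon or Piccolo at 31.0 ± 10.8 RPKM, and Brsk2 the SAD kinases at 13.0 ± 2.2 RPKM. The N-type channel gene Cacna1b, at 4.13 ± 1.45 RPKM, lay below Cacna1a in every library. Rims3, a short RIM protein gene, had 454, 49 and 47 counts (2.998 ± 3.93 RPKM, and 24.5 RPKM by RefSeq-matched length), and Baiap3, a Munc13 relative, had 2, 560 and 34. The 3 lowest of the list were Unc13d (7, 0 and 1 counts), which encodes a Munc13 relative known from blood cells, Rimbp3 (0, 4 and 26 counts) and Rims4 (0, 76 and 0 counts). With 3 counts as the limit, a gene without a count could still have had up to 0.397, 0.340 or 0.385 CPM in replicates 1, 2 and 3, for counting error only.

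**Figure D4:**
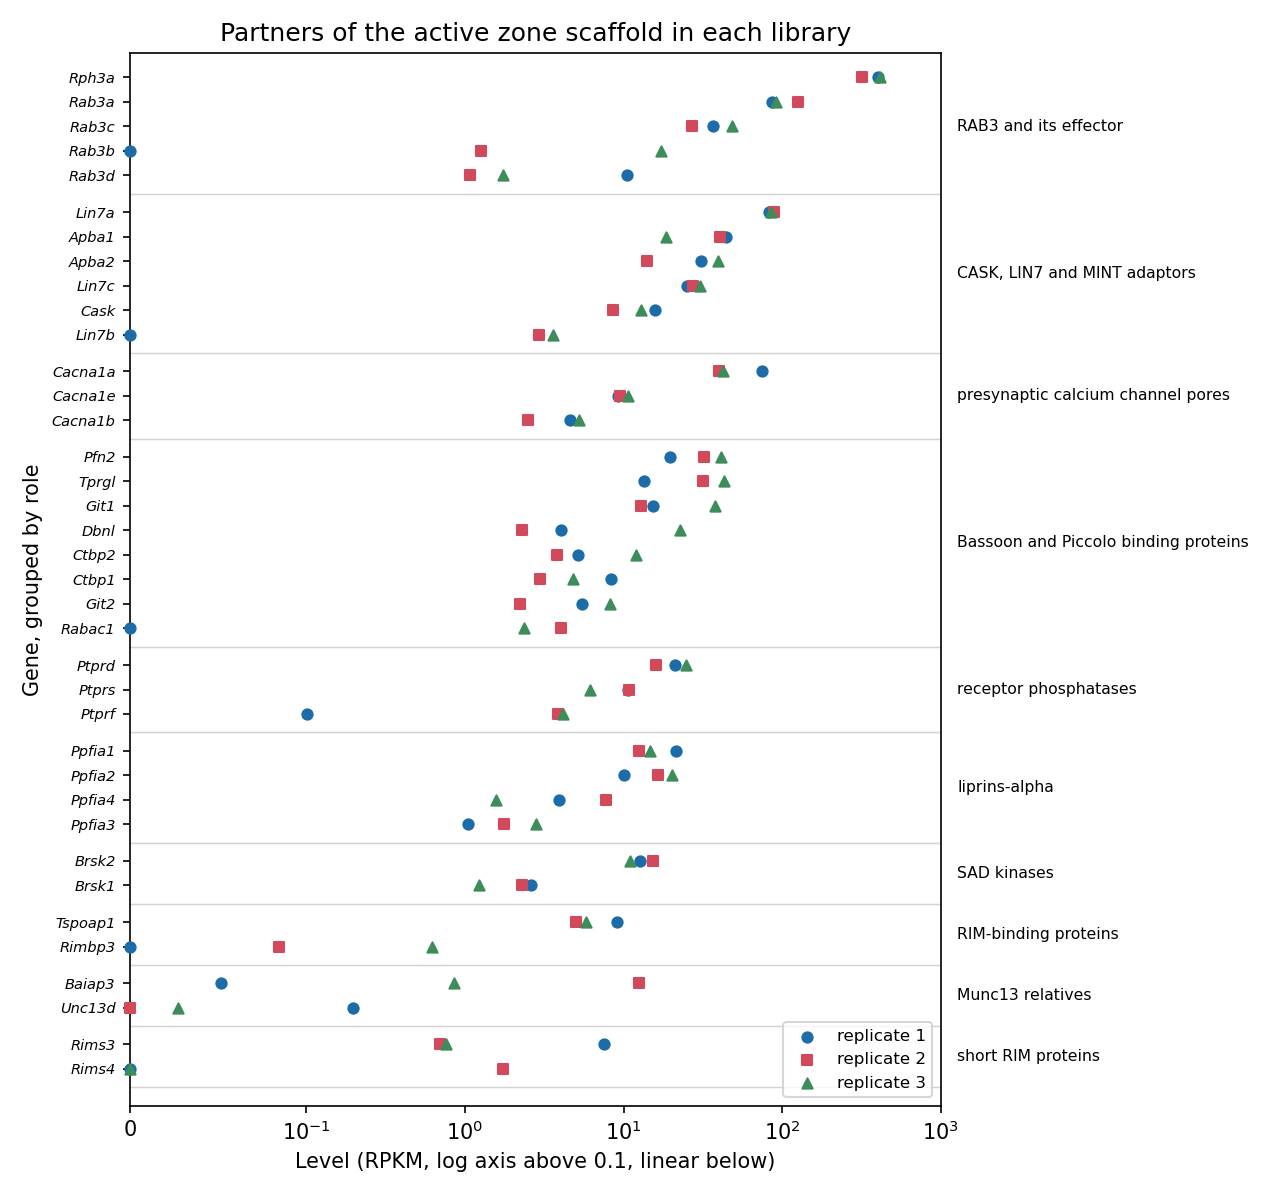
Level in RPKM (log axis above 0.1, linear below) of 37 genes of active zone partners in replicates 1, 2 and 3, grouped by role. The RAB3 group holds the highest gene, Rph3a, and several low genes, such as Baiap3 and Rims4, lie far apart between libraries.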

How the data were processed

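RNA on EGFP-tagged ribosomes of the deep cerebellar nuclei was measured in 3 libraries of 1 group. Each deposited table holds raw read counts by gene symbol. STAR 2.0.0e, HTSeq and the build mm10 are named in the submitters' processing notes. Annotation, strand setting and read length: not given in the sources used here. HTSeq summary rows and a row named unknown were left out. Reads on no feature were 44.1% to 50.2% of those counted, and multiply aligned reads went to no gene, per the file's summary rows.

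CPM used TMM sizes (edgeR 4.0.16, R 4.3.3). RPKM divides by the union of exons in GENCODE M21, matched by symbol. The gene models behind the deposited counts are not given, so lengths are estimates. Paralog ratios used counts plus 0.5 per exon length and an exact sign-flip test (7 pairs, numpy 2.4.6). Where 2 libraries or more had at least 10 counts, the spread of a gene was tested with a Poisson chi-square test and edgeR's quasi-likelihood dispersion. Both were also run on simulated counts, where the second missed most of the genes made to change in 1 library. Reads are not independent molecules, so intervals cover counting error only. Named genes are the members, Tspoap1, Htr6, the highest 5 and lowest 3 of the partner list, the highest of each role group and up to 3 markers per cell type. A few further ones were named after their values were seen: Ppfia2, Cacna1b, Gabra6 and Aif1. Tprgl stands for Tprg1l, its synonym in RefSeq. Members and lists were chosen with earlier results of these data known. No search across all genes for patterns like a member's was made, since a correlation over 3 libraries was not used.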

Additional observations from a re-analysis of the deposited data

How the results depend on the processing

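All 7 paralog ratios kept the sign of their mean, and all 10 member levels moved by less than their SD, under every alternative run for them. For levels these were DESeq2 size factors (DESeq2 1.42.0), plain gene count totals and leaving out each library. For ratios they were the longest coding transcript, no length scaling, a pseudocount of 3 counts, RefSeq-matched lengths (chosen after seeing the data) and leaving out each library. Leaving out a library could not give another outcome, so those runs are no check. It cannot move a mean of 3 values by their SD, and each ratio had 1 sign in all 3 libraries. The level of Unc13b still went from 68.5 to 22.8 CPM without replicate 1. RefSeq-matched lengths moved Unc13a over Unc13b most, to a log2 ratio of 0.81 ± 1.93, and Rimbp2 over Tspoap1 was then -0.34 ± 1.21. Without length scaling Unc13a over Unc13b was -0.44 in replicate 1. Genes more variable than others of their level by edgeR numbered 20 with no filter on low counts and 0 with it, 880 and 477 at an unadjusted p under 0.05, with no member among the 20. Genes beyond counting error numbered 9196 to 9396 when 1 library was left out, and members 9 to 10. No paired analysis was possible because all libraries belong to 1 group. With 3 libraries, no sign-flip test can give a p below 0.25.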
